A study of Homo sapiens with 6 samples.

Results

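The genes described here are the 6 classical insulin-like growth factor (IGF) binding proteins, IGFBP1 to IGFBP6, the receptors INSR and IGF1R, and the adaptors IRS1 and IRS2. They were taken by symbol, and all 10 were found among the 60623 genes in the table of each library. The RNA came from cells of H9, a human embryonic stem cell line, that had been differentiated towards hepatocytes and that the labels call hepatoblasts at day 19. HFPO-TA was given to the cells of 3 libraries. It is a perfluorinated ether acid (hexafluoropropylene oxide trimer acid), and its dose is printed as 10 in a garbled unit. The other 3 libraries came from cells given 0.1% DMSO as vehicle. A share of DMSO is given only for the control cells. All libraries came from this single cell line, and the labels do not say whether the 3 of a group were separate cultures. The p-values thus reflect only how much these libraries varied, and that variation may be technical.

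IGFs and insulin act through the related receptor tyrosine kinases IGF1R and INSR, which phosphorylate IRS1 and IRS2 and thereby open the PI3K-AKT pathway. The IGF binding proteins carry IGFs outside the cell, and they bind insulin only weakly. In liver, insulin holds down IGFBP1 and IRS2 by keeping FOXO transcription factors out of the nucleus. IGFBP1 and IGFBP2 are known as products of hepatocytes, whereas IGFBP3 in liver is ascribed mainly to non-parenchymal cells.

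None of the 9 members that could be tested passed the test for a difference between HFPO-TA and DMSO. The members closest to the threshold were IGFBP6, 50.3 ± 2.08 TPM with HFPO-TA and 40.4 ± 2.91 TPM with DMSO, and IGFBP3, 190.8 ± 18.1 TPM with HFPO-TA and 226.6 ± 8.20 TPM with DMSO (SD, n = 3 each). IGFBP1, the binding protein most often used as a readout of hepatic insulin action, lay near 0 in all 6 libraries. Levels are in TPM, a measure of transcript abundance that corrects for gene length and fixes each library's total. A rise in some genes therefore lowers the values of others.

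The RefSeq promoter table (GRCh38.p14) held 9 of the 10 members; IGFBP1 had no entry. The 250 bases before the RefSeq start are shown for IGFBP6 and IGFBP3, the only tested members whose groups did not overlap, and for IRS2, a known target of FOXO factors. They are written 5′ to 3′ on the strand of the gene, and capitals mark a match to a searched motif. The windows are chr12:53097417-53097666 on the plus strand for IGFBP6, chr7:45921273-45921522 on the minus strand for IGFBP3 and chr13:109786584-109786833 on the minus strand for IRS2.
IGFBP6: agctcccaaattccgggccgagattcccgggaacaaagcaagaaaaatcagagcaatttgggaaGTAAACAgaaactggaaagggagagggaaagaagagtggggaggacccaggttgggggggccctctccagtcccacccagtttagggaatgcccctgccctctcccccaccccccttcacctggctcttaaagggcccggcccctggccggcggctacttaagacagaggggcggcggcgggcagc
IGFBP3: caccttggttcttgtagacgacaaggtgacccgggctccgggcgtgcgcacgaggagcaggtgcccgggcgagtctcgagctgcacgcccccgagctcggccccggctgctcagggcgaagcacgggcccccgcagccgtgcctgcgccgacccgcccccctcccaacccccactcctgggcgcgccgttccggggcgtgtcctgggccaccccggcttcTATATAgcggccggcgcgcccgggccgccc
IRS2: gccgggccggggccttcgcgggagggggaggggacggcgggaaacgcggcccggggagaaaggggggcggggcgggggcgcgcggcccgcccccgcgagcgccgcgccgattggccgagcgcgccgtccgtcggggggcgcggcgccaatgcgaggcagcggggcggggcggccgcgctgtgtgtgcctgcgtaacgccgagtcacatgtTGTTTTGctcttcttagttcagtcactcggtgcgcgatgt

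The motifs searched on both strands were GTAAACA, the core bound by forkhead factors, CAAAACA, the core of the insulin response elements known from IGFBP1, the TATA box forms TATAAA and TATATA, and AGGTCA repeated after any 1 base, the direct repeat bound by PPAR-RXR pairs. No pair of these motifs overlapped in the windows shown. GTAAACA was found in the IGFBP6 window, 186 to 180 bases before the start, and in 2.98% of all 34943 windows of this length in the table. CAAAACA was found in the IRS2 window, 40 to 34 bases before the start, as TGTTTTG on the strand shown, and in 4.31% of all windows. TATATA was found in the IGFBP3 window, 30 to 25 bases before the start, and in 3.74% of all windows. TATAAA was found among the members only in the IGFBP4 window, which is not shown, and in 10.8% of all windows. The direct repeat was found in no member's window and in 0.0172% of all windows. A match describes letters in a window and is not evidence of binding, and a window without a match says nothing about the factor.

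The label hepatoblast was set against marker genes. All 12 hepatoblast and fetal hepatocyte markers were above the filter, among them AFP, a fetal serum protein, at 63150 to 66804 TPM with HFPO-TA and 71682 to 79063 TPM with DMSO. FGB, a fibrinogen chain, was the only one of the 12 called by limma, lower with HFPO-TA at 3090.46 to 3896.38 TPM against 6104.58 to 7091.31 TPM with DMSO (log2 fold change -0.97, SE 0.09, adjusted p = 0.0104), and the call held in 3 of 6 fits that left out a library. Of the 12 markers 9 were below 0, with a median log2 fold change of -0.22, 7 had an unadjusted p under 0.05 by limma and 6 had groups that did not overlap. Over all tested genes 0.306% were called lower, 12.0% had an unadjusted p under 0.05 and 17.9% had groups that did not overlap. ALB, serum albumin, stood at 54.07 to 73.51 TPM with HFPO-TA and 100.92 to 128.68 TPM with DMSO (log2 fold change -0.80, SE 0.13, adjusted p = 0.0522 by limma). Of 7 markers of mature hepatocytes only CPS1 and ARG1 passed the filter, and CYP7A1 was at 0.03 TPM or less in every library. All 11 stromal and stellate markers passed the filter, with a summed level of 1415 to 2636 TPM with HFPO-TA and 1695 to 2350 TPM with DMSO. Markers of other cell types were measured too. Of 4 gut markers 3 passed the filter, with CDX2, an intestinal transcription factor, at 53.67 to 61.89 TPM with HFPO-TA and 54.24 to 72.89 TPM with DMSO, and VIL1, a brush border protein, at 193.84 to 203.06 TPM with HFPO-TA and 197.52 to 221.16 TPM with DMSO. KDR, an endothelial receptor, stood at 22.48 to 46.68 TPM with HFPO-TA and 24.95 to 39.42 TPM with DMSO, and STMN2, a neuronal protein, at 17.51 to 37.17 TPM with HFPO-TA and 27.28 to 31.87 TPM with DMSO. Of 6 endothelial markers 5 passed the filter, and of 5 neural markers 3 did. VWF, at 0.05 to 0.46 TPM over all libraries, was the endothelial one that did not. The neural ones that did not were DCX, at 0.03 TPM or less, and MAP2, at 0.43 to 0.72 TPM. Some genes typical of mesenchymal, gut, endothelial and neural cells were thus measured beside those of hepatoblasts. None of the tested markers of these 4 kinds was called by limma. The gut, endothelial and stromal lists each had 1 marker at an unadjusted p under 0.05 by limma, with groups that did not overlap. CDH17, of gut, stood at 47.62 to 53.49 TPM with HFPO-TA and 55.01 to 69.73 TPM with DMSO. COL6A3, of stroma, was also lower with HFPO-TA, at 8.86 to 9.97 TPM against 12.42 to 14.05 TPM. EMCN, of endothelium, was higher, at 1.8 to 2.98 TPM against 0.8 to 1.28 TPM. The 4 other tested endothelial markers were below 0. In such bulk samples fewer cells of a type and less RNA per cell cannot be told apart. How deeply each library was sequenced cannot be read from TPM, and no counting intervals are printed.

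Among the binding proteins the order of levels was the same in both groups, IGFBP3, IGFBP5, IGFBP2, IGFBP4, IGFBP6 and, far below, IGFBP1. IGFBP5 and IGFBP2 had overlapping ranges in both groups, and IGFBP4 and IGFBP6 overlapped with HFPO-TA but not with DMSO. INSR was next in both groups, followed by IRS2 and IGF1R, whose ranges overlapped in both groups, and by IRS1. By mean IRS2 was above IGF1R with HFPO-TA, at 11.7 against 9.27 TPM. With DMSO it was below, at 9.61 against 10.9 TPM. By mean level IGFBP3 was 523rd and IRS1 9691st of the 15664 genes tested.

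**Figure D1:**
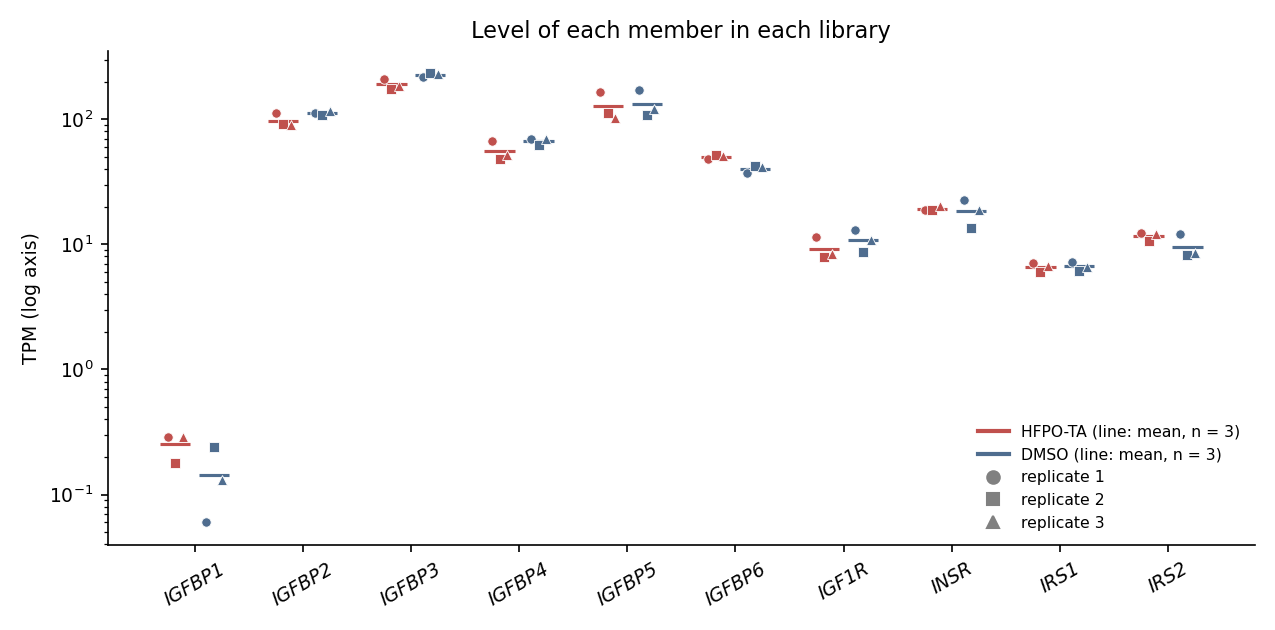
TPM of the 10 genes in each library on a log axis, with HFPO-TA in red left of DMSO in blue, symbols for replicate numbers and a line at the mean of 3 libraries. IGFBP1 lies between 0.06 and 0.29 TPM, and each of the other 9 genes lies above 5 TPM in every library.

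IGFBP1 stood at 0.29, 0.18 and 0.29 TPM in HFPO-TA replicates 1 to 3, against 0.06, 0.24 and 0.13 TPM in DMSO replicates 1 to 3. The groups overlapped. No library reached the filter of 1 TPM, so IGFBP1 was not tested and no fold is given. In GENCODE 29 (GRCh38) IGFBP1 lies on the plus strand of chromosome 7 from 45888357 to 45893668. Its neighbour IGFBP3 lies on the minus strand from 45912245 to 45921874, so the 3′ ends of the pair face each other. The gap between these ends is 18576 bases, with no annotated gene between them. The levels of the pair were far apart in every library.

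IGFBP3, the main carrier of IGFs in serum, was the most abundant of the 10. It stood at 210.83, 175.8 and 185.77 TPM in HFPO-TA replicates 1 to 3, against 217.61, 233.67 and 228.51 TPM in DMSO replicates 1 to 3. Every HFPO-TA library lay below every DMSO library, with replicate 1 of HFPO-TA close to the lowest DMSO library. This gave a log2 fold change of -0.25 (SE 0.08, 95% interval -0.43 to -0.07) and, by limma over all tested genes, an adjusted p of 0.244 (unadjusted p = 0.0114). Replicate 1 alone gave a difference of -0.05 on the log2 scale, and replicates 2 and 3 gave -0.35 (SE 0.05, adjusted p = 0.0536 by limma). Replicate 1 is set apart because a letter in the names of the tables, which the labels do not explain, parts it from replicates 2 and 3 in both groups.

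IGFBP6, which prefers IGF2 over IGF1, was the only binding protein above the test filter that was higher with HFPO-TA. It stood at 48.13, 52.27 and 50.62 TPM in HFPO-TA replicates 1 to 3, against 37.09, 42.52 and 41.64 TPM in DMSO replicates 1 to 3. The groups did not overlap. The log2 fold change was 0.31 (SE 0.08, 95% interval 0.13 to 0.50), with an adjusted p of 0.166 by limma (unadjusted p = 0.00463). It was 0.37 in replicate 1 alone and 0.28 in replicates 2 and 3 (SE 0.07, adjusted p = 0.124 by limma), so the difference was of similar size on either side of that split.

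IGFBP4, an inhibitor of IGF action that the protease PAPPA cleaves, stood at 66.47, 48.55 and 51.54 TPM with HFPO-TA, against 69.65, 62.43 and 69.05 TPM with DMSO. HFPO-TA replicates 2 and 3 lay below all other libraries, while replicate 1 fell within the DMSO range. IGFBP4 had a log2 fold change of -0.28 (SE 0.12, adjusted p = 0.406 by limma), and replicates 2 and 3 gave -0.39 (SE 0.08, adjusted p = 0.0938).

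IGFBP2, a carrier abundant in fetal life, had the same arrangement. It stood at 111.64, 91.07 and 89.36 TPM with HFPO-TA, against 113.17, 107.39 and 115.58 TPM with DMSO. Replicates 2 and 3 of HFPO-TA were again the lowest libraries. For IGFBP2 the log2 fold change was -0.21 (SE 0.09, adjusted p = 0.429 by limma), and replicates 2 and 3 gave -0.30 (SE 0.06, adjusted p = 0.0978).

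IGFBP5, a binding protein that also attaches to extracellular matrix, varied more between replicates than between groups. It stood at 166.11, 112.42 and 103.21 TPM in HFPO-TA replicates 1 to 3, against 170.42, 108.74 and 120.31 TPM in DMSO replicates 1 to 3. Replicate 1 was high in both groups, at 1.54 times the mean of replicates 2 and 3 with HFPO-TA and 1.49 times with DMSO. The log2 fold change was -0.07 (95% interval -0.63 to 0.49, adjusted p = 0.94 by limma), and its sign turned when DMSO replicate 1 was left out, and likewise for replicate 2 or replicate 3 of HFPO-TA. IGFBP5 lies on chromosome 2, on the minus strand from 216672105 to 216695525 (GENCODE 29), 7668 bases beyond IGFBP2, which lies on the plus strand. The antisense gene that overlaps it, AC007563.2, was listed at 0 in all libraries.

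Several stromal markers were also high in replicate 1. With HFPO-TA, COL3A1, a fibrillar collagen, was 2.14 times as high in replicate 1 as in the mean of replicates 2 and 3, and with DMSO 1.42 times. DCN, a matrix proteoglycan, was 6.10 times as high with HFPO-TA, the highest ratio of the 11, and 1.47 times with DMSO. Other stromal markers differed less or were lower in replicate 1 of DMSO. TAGLN was at 1.10 times with HFPO-TA and 0.752 times with DMSO, and COL6A3 at 1.11 and 0.894 times. The summed level of the 11 stromal markers was 2636, 1415 and 1428 TPM in HFPO-TA replicates 1 to 3, against 2350, 1695 and 1910 TPM in DMSO replicates 1 to 3. All 11 had a negative log2 fold change, with a median of -0.22, and 0 passed the test (1 at an unadjusted p under 0.05 by limma). The median of the hepatoblast markers was also -0.22, with 7 of 12 at an unadjusted p under 0.05. The part of either marker list in the values of IGFBP3, IGFBP4, IGFBP5 and IGF1R was not tested.

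**Figure D2:**
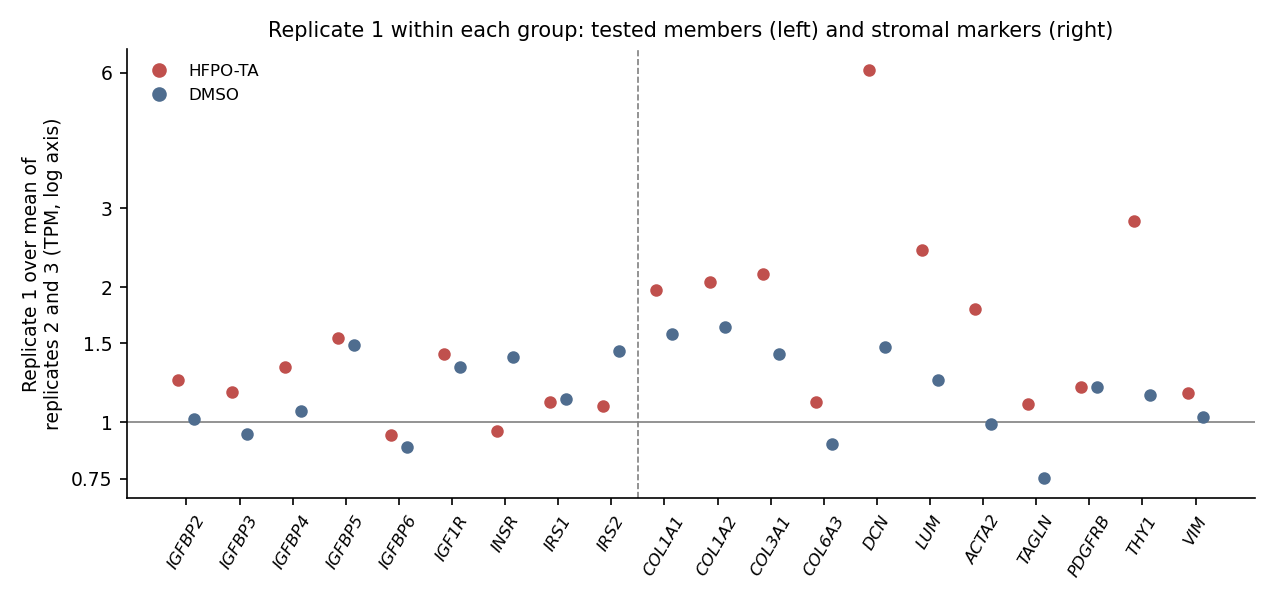
Level in replicate 1 over the mean of replicates 2 and 3 of the same group, on a log axis, for the 9 tested members left of the dashed line and 11 stromal markers right of it, with HFPO-TA in red and DMSO in blue. IGFBP5, at 1.54 and 1.49, and IGF1R, at 1.42 and 1.33, are raised in replicate 1 of both groups, while IGFBP6, at 0.936 and 0.881, is not.

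The 6 binding proteins together made up 603.5, 480.3 and 480.8 TPM with HFPO-TA, against 608.0, 555.0 and 575.2 TPM with DMSO, and the groups overlapped. IGFBP3 held 36.7% ± 1.85 of that sum with HFPO-TA and 39.2% ± 3.18 with DMSO (SD, n = 3 each). The share of IGFBP6 was 7.98% to 10.9% with HFPO-TA and 6.10% to 7.66% with DMSO, and these ranges did not overlap. IGFBP4 also had separate ranges, with 10.1% to 11.0% of the sum with HFPO-TA and 11.2% to 12.0% with DMSO. The ratio of IGFBP3 to IGFBP6 was 4.38, 3.36 and 3.67 with HFPO-TA, against 5.87, 5.50 and 5.49 with DMSO. All 3 HFPO-TA libraries lay below the DMSO libraries. That had to be so, because IGFBP3 was lower and IGFBP6 higher in every HFPO-TA library than in every DMSO library. These shares and ratios were chosen after the values had been seen and are descriptions without a test.

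**Figure D3:**
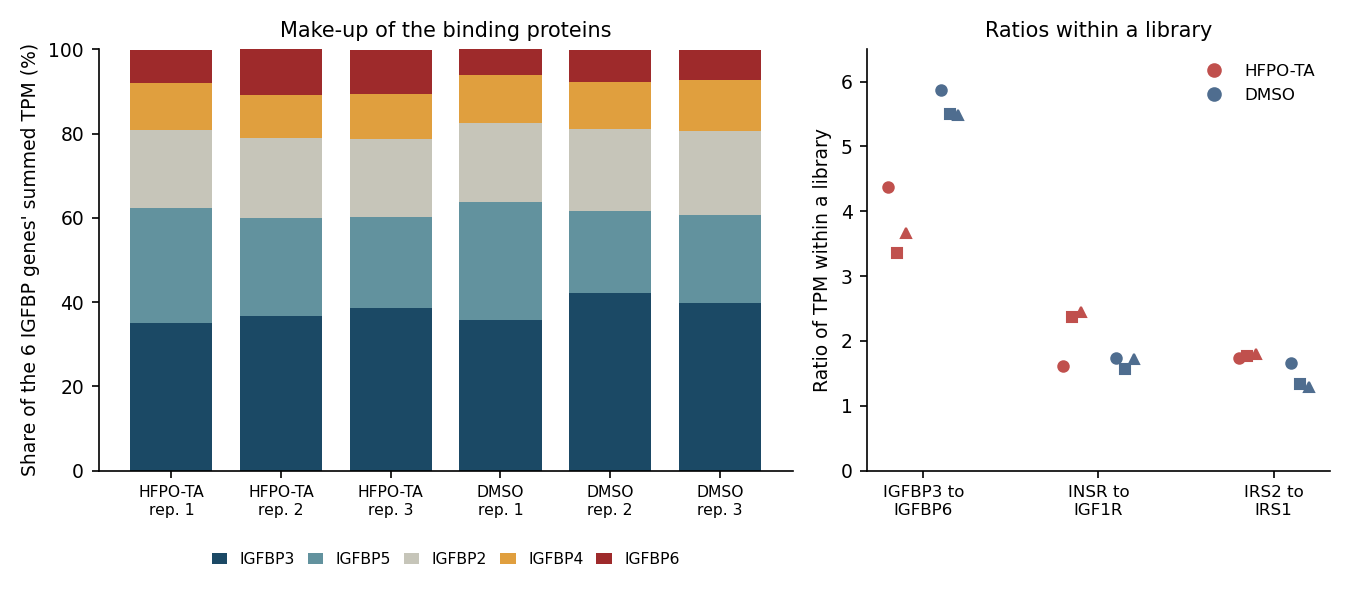
Left, share in percent of the summed TPM of the 6 IGFBP genes in each library, with HFPO-TA left of DMSO (IGFBP1 is too small to be drawn). Right, ratio of TPM between gene pairs within each library, with HFPO-TA in red and DMSO in blue; the IGFBP3 to IGFBP6 ratio is 3.36 to 4.38 with HFPO-TA and 5.49 to 5.87 with DMSO.

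INSR, the insulin receptor, stood at 18.69, 18.75 and 20.33 TPM in HFPO-TA replicates 1 to 3, against 22.66, 13.63 and 18.84 TPM in DMSO replicates 1 to 3. The HFPO-TA libraries lay close together within the wider DMSO range. The log2 fold change was 0.09 (SE 0.17, 95% interval -0.29 to 0.47, adjusted p = 0.885 by limma). It was -0.27 in replicate 1 alone and 0.27 in replicates 2 and 3, and without DMSO replicate 2 it turned to -0.10.

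IGF1R, the receptor for IGF1 and IGF2, stood at 11.56, 7.91 and 8.33 TPM with HFPO-TA, against 13.05, 8.68 and 10.91 TPM with DMSO. Replicate 1 was the highest library in each group, and the groups overlapped. The log2 fold change was -0.21 (SE 0.18, 95% interval -0.63 to 0.21, adjusted p = 0.718 by limma). INSR was above IGF1R in every library, by 1.62, 2.37 and 2.44 times with HFPO-TA, against 1.74, 1.57 and 1.73 times with DMSO. IRAIN, an RNA that the table describes as antisense to IGF1R, was listed at 1.01 TPM in HFPO-TA replicate 1 and at 0 in the other 5 libraries.

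IRS2, the adaptor through which insulin acts strongly in liver, stood at 12.37, 10.59 and 12.16 TPM with HFPO-TA, against 12.08, 8.24 and 8.5 TPM with DMSO. DMSO replicate 1 lay among the HFPO-TA libraries, and the other DMSO libraries lay below them. The log2 fold change was 0.28 (SE 0.15, 95% interval -0.08 to 0.63, adjusted p = 0.54 by limma), with 0.03 in replicate 1 alone and 0.40 in replicates 2 and 3 (SE 0.12, adjusted p = 0.183). AL162497.1, antisense to IRS2, stood at 0.88 to 2.30 TPM with HFPO-TA and 0.71 to 1.13 TPM with DMSO. Strand handling is not given in the sources used here, so reads of the pair cannot be told apart.

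IRS1, the companion adaptor, stood at 7.10, 5.97 and 6.77 TPM with HFPO-TA, against 7.25, 6.17 and 6.61 TPM with DMSO. The groups overlapped almost fully, and the log2 fold change was -0.01 (SE 0.12, 95% interval -0.30 to 0.27, adjusted p = 0.982 by limma). Its sign turned without DMSO replicate 1 or HFPO-TA replicate 2. The ratio of IRS2 to IRS1 was 1.74, 1.77 and 1.80 with HFPO-TA, against 1.67, 1.34 and 1.29 with DMSO, a description chosen after the values had been seen. The HFPO-TA libraries had the higher ratios, with DMSO replicate 1 next to them.

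In all, 0 of the 9 tested members were called by limma at an adjusted p under 0.05, where 0.492% of the 15664 tested genes, 77 genes, were called. Leaving out HFPO-TA replicate 1 raised that number to 291 and leaving out HFPO-TA replicate 2 lowered it to 6, with 0 members called in either fit. At an unadjusted p under 0.05 there were 3 of 9, IGFBP3, IGFBP4 and IGFBP6, against 12.0% of all tested genes. The groups did not overlap for 2 of 9 members, against 17.9% of tested genes. The median log2 fold change was -0.07 over the 9 members and -0.01 over all tested genes, with 3 members above 0 and 6 below. The 9 intervals lay between -0.63 and 0.63, so these data bound the differences but do not show that the groups were equal. The intervals of IGFBP3, IGFBP4 and IGFBP6 did not include 0, but they are not adjusted for the number of genes.

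**Figure D4:**
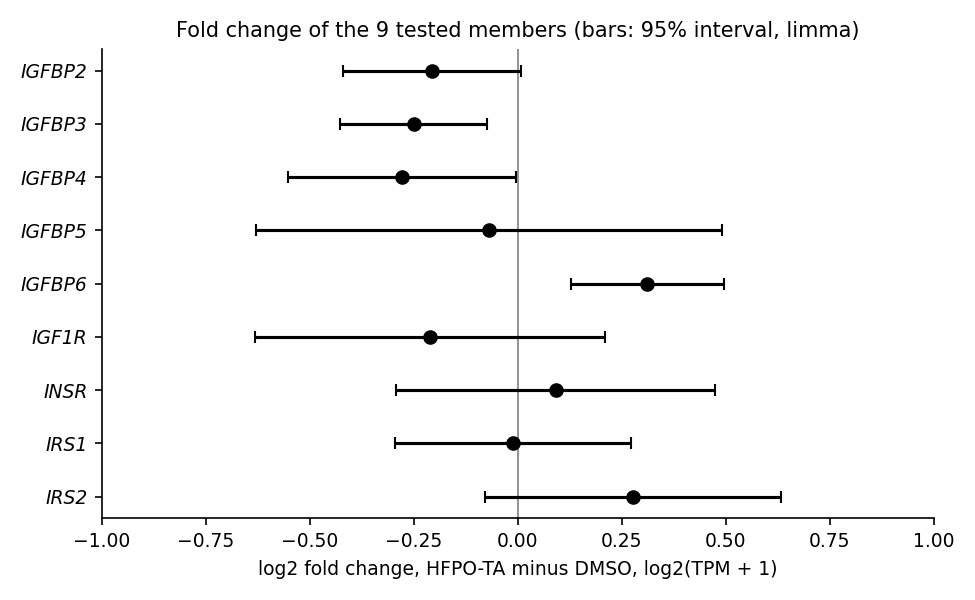
Log2 fold change of the 9 tested members, from log2(TPM + 1) values of HFPO-TA over DMSO, with 95% intervals from limma. IGFBP6 is at 0.31 and IGFBP3 at -0.25, and all intervals lie between -0.63 and 0.63.

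The genes whose pattern was most like that of IGFBP6 across the 6 libraries, by Pearson's r on log2(TPM + 1) among genes with a mean of at least 10 TPM, were BLVRB, a biliverdin reductase (r = 0.995), HLA-DPA1, a class II antigen-presenting chain (r = 0.990), and CDS1, a phospholipid synthesis enzyme (r = 0.990). Those most like IGFBP3 were CNN1, a smooth muscle calponin (r = 0.994), BOK, a BCL2 family protein (r = 0.994), and CD24, a surface glycoprotein (r = 0.989). The points share the same 6 libraries and the split into groups, so these values are descriptions. BLVRB stood at 97.12 to 102.85 TPM with HFPO-TA and 77.44 to 85.39 TPM with DMSO, and CNN1 at 24.51 to 35.15 TPM with HFPO-TA and 37.58 to 42.03 TPM with DMSO. None of these 6 genes was called (adjusted p from 0.133 for BLVRB to 0.411 for BOK by limma).

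The wider pathway was described with lists of related genes. Beside the counts of each list stand the shares over all tested genes. These were 0.492% called, 12.0% at an unadjusted p under 0.05 by limma and 17.9% with groups that did not overlap. IGF2, a fetal growth factor named here after its values were seen, stood at 485.87 to 631.13 TPM with HFPO-TA and 493.11 to 612.80 TPM with DMSO (log2 fold change -0.01, SE 0.11), more than any binding protein. IGF1 stood at 0.49 to 1.6 TPM with HFPO-TA and 0.52 to 0.94 TPM with DMSO and was not tested. INS and INSRR were listed at 0 in every library. Of 8 ligands, other receptors and carriers 4 were tested and 0 called (0 at an unadjusted p under 0.05, median -0.09); the smallest p-values belonged to IGFBPL1 (adjusted p = 0.77 by limma) and IGFBP7 (adjusted p = 0.833).

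Proteases of the binding proteins and their inhibitors had 7 tested genes, 0 called and 2 at an unadjusted p under 0.05 by limma (median -0.13). STC1, stanniocalcin 1, which inhibits pappalysins, stood at 22.59, 16.99 and 15.75 TPM with HFPO-TA, against 27.09, 27.26 and 28.44 TPM with DMSO. All HFPO-TA libraries lay below all DMSO libraries (log2 fold change -0.57, SE 0.13, adjusted p = 0.123 by limma). PAPPA2, a pappalysin that cleaves IGFBP3 and IGFBP5, stood at 1.15, 0.39 and 1.18 TPM with HFPO-TA, against 2.89, 1.52 and 2.53 TPM with DMSO (log2 fold change -0.80, SE 0.25, adjusted p = 0.253 by limma). Its groups did not overlap either.

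The growth hormone relay had 6 tested genes, 0 called and 1 at an unadjusted p under 0.05 by limma (median 0.08). That gene was GHR, the growth hormone receptor, at 8.76, 5.79 and 5.93 TPM with HFPO-TA, against 11.29, 10.31 and 10.20 TPM with DMSO (log2 fold change -0.59, SE 0.16, adjusted p = 0.189). The groups did not overlap. STAT5A, a transcription factor downstream of GHR, had a log2 fold change of 0.23 (adjusted p = 0.643).

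Adaptors and the PI3K-AKT-FOXO relay had 24 tested genes, 0 called and 2 at an unadjusted p under 0.05 by limma (median 0.05). These were SOS1, a RAS exchange factor, at 27.1 ± 0.76 TPM with HFPO-TA and 22.9 ± 1.31 TPM with DMSO, and PIK3CB, a PI3K catalytic subunit, at 27.3 ± 2.06 TPM with HFPO-TA and 22.9 ± 1.87 TPM with DMSO (SD, n = 3 each; adjusted p = 0.295 and 0.374 by limma). Brakes on the pathway had 15 tested genes, 0 called and 0 at an unadjusted p under 0.05 by limma (median 0.01). The smallest p-values among them belonged to ENPP1, which hinders INSR (adjusted p = 0.57), and TSC1, which restrains mTORC1 (adjusted p = 0.632).

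Genes that insulin holds down in liver through FOXO had 14 tested genes, of which 2 were called higher, PDK4 and PCK1, and 0 lower. The share of all tested genes called higher was 0.185%. PCK1, a gluconeogenic enzyme, stood at 270.77, 259.12 and 275.61 TPM with HFPO-TA, against 184.09, 128.14 and 145.88 TPM with DMSO (log2 fold change 0.83, SE 0.12, adjusted p = 0.0418 by limma). The groups did not overlap, but the call was lost in each of the 5 fits that left out a library other than DMSO replicate 1 (adjusted p up to 0.227). PDK4, which restrains glucose oxidation and is also a PPARA target, stood at 28.04 to 35.41 TPM with HFPO-TA and 4.84 to 6.15 TPM with DMSO and was called in all 6 such fits. The other 12 did not pass. In all, 9 of the 14 were above 0 and 5 below, and the list's median was 0.12.

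Genes that insulin raises in liver had 11 tested genes, 0 called and 4 at an unadjusted p under 0.05 by limma (median -0.03). SCD, a fatty acid desaturase, stood at 741.37 to 806.11 TPM with HFPO-TA and 585.97 to 662.60 TPM with DMSO (log2 fold change 0.35, SE 0.06, adjusted p = 0.0715 by limma). SREBF1, a transcription factor of lipid synthesis, stood at 20.84 to 22.24 TPM with HFPO-TA and 15.91 to 17.48 TPM with DMSO (log2 fold change 0.36, SE 0.09, adjusted p = 0.133). Neither gene had overlapping groups. Of the 11 genes 5 were above 0 and 6 below, among them PNPLA3, a lipid droplet protein named after its values were seen, at 23.84 to 29.09 TPM with HFPO-TA and 29 to 32.86 TPM with DMSO (log2 fold change -0.27, SE 0.10, adjusted p = 0.331). GPAM, named likewise, had a smaller p than PNPLA3 and was higher with HFPO-TA (log2 fold change 0.41, SE 0.14, adjusted p = 0.285 by limma). Its groups did not overlap. With SCD and SREBF1 these were the 4 genes at an unadjusted p under 0.05.

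ATF4 and hypoxia genes include known inducers of IGFBP1 transcription and their targets. Of 13 tested genes 1 was called higher and 0 lower (median 0.11), where 0.185% of all tested genes were called higher. In this list 9 genes were above 0 and 4 below. An unadjusted p under 0.05 by limma was found for 4 of them, and 6 had groups that did not overlap. GDF15, a secreted stress factor, had a log2 fold change of 1.09 (SE 0.15, adjusted p = 0.0418 by limma), and the call was kept only without HFPO-TA replicate 1 among the 6 fits that left out a library. DDIT3, a stress-induced transcription factor, had a log2 fold change of 0.57 (SE 0.09, adjusted p = 0.0506). EGLN3, named after its values were seen, was lower, at 8.08 to 9.56 TPM with HFPO-TA and 11.01 to 12.69 TPM with DMSO. Its log2 fold change was -0.36 (SE 0.11, adjusted p = 0.249 by limma). Of 10 tested PPARA targets 5 rose and 0 fell (median 0.73), a list that earlier results had already shown to be high. Besides PDK4 these included PLIN2, a lipid droplet coat protein, at 404.88 to 452.03 TPM with HFPO-TA and 100.79 to 116.56 TPM with DMSO, and ACSL5, an acyl-CoA synthetase, at 46.91 to 56.89 TPM with HFPO-TA and 19.54 to 22.29 TPM with DMSO. Both were called in all 6 fits that left out a library. CREB3L3, a liver transcription factor, stood at 82.11 to 90.19 TPM with HFPO-TA and 59.16 to 60.90 TPM with DMSO (adjusted p = 0.0272 by limma). Among fits that left out a library, its call was kept only without HFPO-TA replicate 1.

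**Figure D5:**
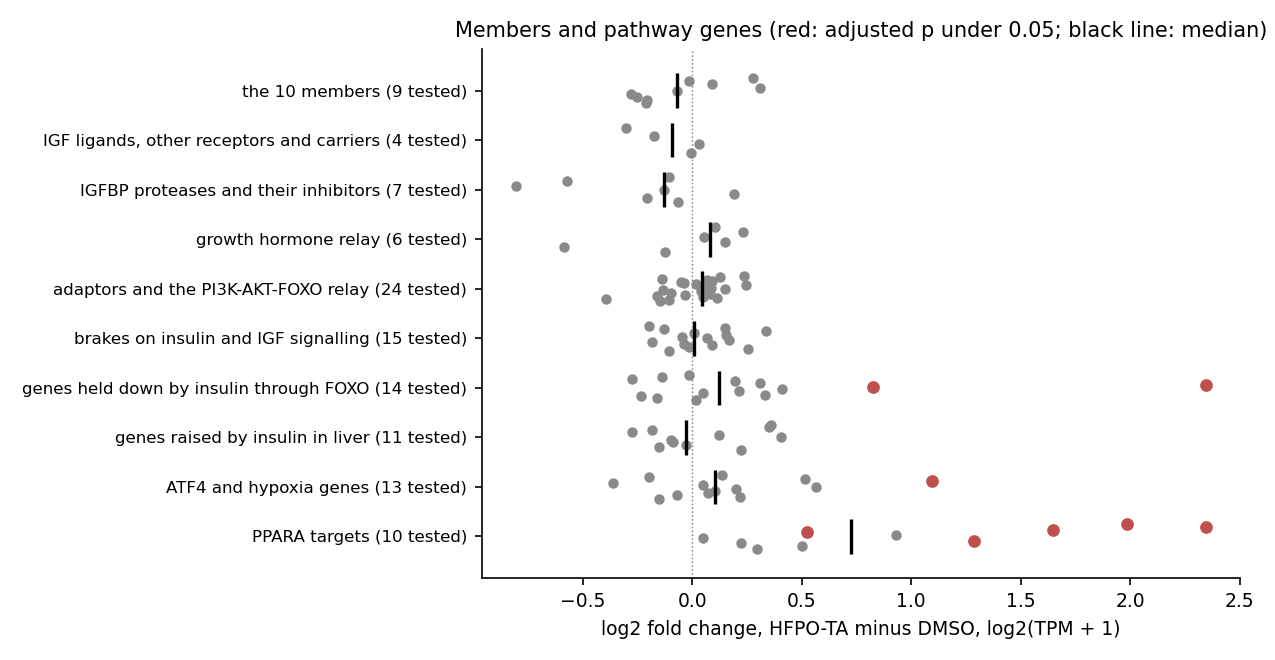
Log2 fold change, HFPO-TA minus DMSO, of each tested gene of the 10 members and of 9 lists of related genes; red points have an adjusted p under 0.05 and black lines are medians. The members range from -0.28 to 0.31 with none called, and the called genes lie in the FOXO, ATF4 and PPARA lists.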

How the data were processed

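Total RNA was sequenced from 6 libraries, 3 per group. Each deposited table gave 1 value per gene under a header that says FPKM; since each column sums to between 995690 and 996186, the deposited values were taken to be TPM. Per the submitters' processing notes, HISAT, Bowtie2, RSEM and the build GRCh38.p13 were used, with no version or role stated. TPM keeps no depth, so precision rests on the spread between libraries.

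The test used log2(TPM + 1) of the 15664 genes that reached 1 TPM in no fewer than 3 libraries. The model held treatment alone, with a trended, robust variance (limma 3.58.1, R 4.3.3), and p-values were 2-sided with Benjamini-Hochberg adjustment over all tested genes (threshold 0.05). Fold changes on this scale understate the change of low genes. The fit was tested on simulated data. No count test was run, because the tables hold no counts.

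The members and lists were chosen with earlier results of these data known. All members are named, with the 2 genes of smallest p and any called gene of each pathway list, and the 3 genes most correlated with each of the 2 members of smallest p. A called gene of the PPARA list is not reported here by name. Positions came from GENCODE 29. Python 3.11.15 with matplotlib 3.10.9 drew the figures. Alternatives covered the pseudocount, filter, variance estimate, replicate number, the letter in the table names, scaling and each library left out.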

Additional observations from a re-analysis of the deposited data

How the results depend on the processing

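The number of members called was 0 in all 15 alternatives, with adjusted p-values from 0.0507 to 0.999. Of 135 alternative values, 129 kept their sign. Those that turned were IGFBP5, at 0.12 without DMSO replicate 1, 0.0034 without HFPO-TA replicate 2 and 0.06 without HFPO-TA replicate 3 (-0.28 to 0.12 in all), IRS1, at 0.0407 without DMSO replicate 1 and 0.0498 without HFPO-TA replicate 2 (-0.0605 to 0.0498), and INSR, at -0.10 without DMSO replicate 2 (up to 0.25 with another library left out and 0.27 in all). In each of these a library was left out; beyond that the cause was not tested.

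Genes called over all tested genes numbered 77, against 10 without a filter (6 higher), 11 with a plain variance, 39 with upper-quartile and 30 with median-of-ratios scaling, 207 with a term for the letter and 222 without replicate 1 of both groups. With 1 library left out they ran from 6 to 291. The FOXO list, with 2 called, had 1 without a filter and with a plain variance, 3 with the letter term and 1 to 2 with a library left out. The ATF4 and hypoxia list, with 1 called, had 0 without a filter, with a plain variance and with either scaling, 2 with a mean of at least 5 TPM, 3 with the letter term and 0 to 1 with a library left out. PPARA targets, with 5 called, had 3 without a filter and with a plain variance, 7 under the filter on a mean of 5 TPM, 6 with the letter term and 3 to 7 with a library left out. With a library left out, IGFBP proteases and the growth hormone relay ran from 0 to 1 and genes raised by insulin from 0 to 2; without replicate 1 of both groups IGFBP proteases had 1 and genes raised by insulin 1.

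With the replicate as a block 30 genes were called, with 0 members, 1 of the FOXO list, 0 of the ATF4 list and 3 PPARA targets. Deviations correlated at 0.184, 0.123 and 0.028 for same numbers of replicates 1 to 3, and at -0.158 to 0.068 for different numbers. Whether the numbers pair the libraries was not tested. Scaling moved the median of all genes by no more than 0.01. Planned count tests were not run, since the tables hold TPM.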
